A study of Homo sapiens with 6 samples.

Results

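The 10 genes described here encode the 6 transcription factors most often linked to the epithelial-to-mesenchymal transition (EMT), ZEB1, ZEB2, SNAI1, SNAI2, TWIST1 and TWIST2, and 4 classical cadherins, CDH1, CDH2, CDH4 and CDH11. They were chosen by name. Of the 10, 8 were among the 15651 genes of the deposited table and all 8 passed the filter applied here, at least 4 normalized counts in at least 3 libraries, while TWIST1 and TWIST2 had no row and were not analysed here. MDA-MB-231, a human triple-negative breast cancer (TNBC) cell line with a mesenchymal shape, was profiled by RNA-seq in 3 cultures treated with DMSO, the vehicle, and 3 treated with BRL-50481, a selective inhibitor of the cyclic AMP-degrading enzyme PDE7A. The study and the treatment text of the labels give 50 μM for 72 h, but a separate label states 5 μM and 48 h, and the data do not tell which was used. The comparison rests on 1 cell line and 1 compound.

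EMT is a switch in which epithelial cells loosen their junctions and gain motility. ZEB, Snail and Twist proteins drive it. The ZEB and Snail proteins are repressors that bind E-box letters in promoters. CDH1, which encodes E-cadherin of the adherens junction, is their best known target. During EMT, cells often exchange E-cadherin for N-cadherin (CDH2) or other mesenchymal cadherins, and CDH1 is known to be largely silent in MDA-MB-231 cells. The comparison asks how the mRNA of these genes differed after treatment with BRL-50481.

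The libraries held between 30750573 and 33446984 reads on genes. Markers of the line were abundant in all 6 libraries, with VIM at 58840 ± 2498 normalized counts in DMSO (SD, n = 3), while the estrogen receptor gene ESR1, the leukocyte genes PTPRC and CD3E and the stromal gene DCN had no row. The summed level of the 2 leukocyte markers that were listed, of 4, was 8.82 to 18.4 normalized counts in DMSO and 28.2 to 36.3 in BRL-50481, that of 2 of 3 endothelial markers 758 to 932 and 734 to 858, and that of 3 of 4 fibroblast markers 312 to 371 and 319 to 372. None of the listed markers was at 0 in every library, and their part in the results was not tested. DMSO replicate 1 lay farthest from its group, since its recovered reads gave chi-square values of 13.7 and 22.1 (per degree of freedom) against the other DMSO libraries, which gave 3.99 against each other.

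The treatment lowered SNAI1 mRNA 3.55-fold and SNAI2 mRNA slightly, raised the small amount of CDH1 mRNA, and raised CDH11 mRNA, already among the most abundant of the 8. ZEB1, ZEB2, CDH2 and CDH4 did not pass the test. Thus 2 of the 8 genes were higher and 2 lower, in limma on log2 of the normalized count plus 1 with Benjamini-Hochberg adjustment over 15246 genes. Across all genes tested, 28.9% were higher and 29.8% lower, 58.7% in all, so the share of members called was near the background. A log2 fold change over 1 in size, with an adjusted p under 0.05, was met by 2 of the 8, SNAI1 and CDH1, against 8.04% of all genes. In normalized counts, the libraries of the groups did not overlap for 5 of the 8, against 64.2% of all genes.

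**Figure D1:**
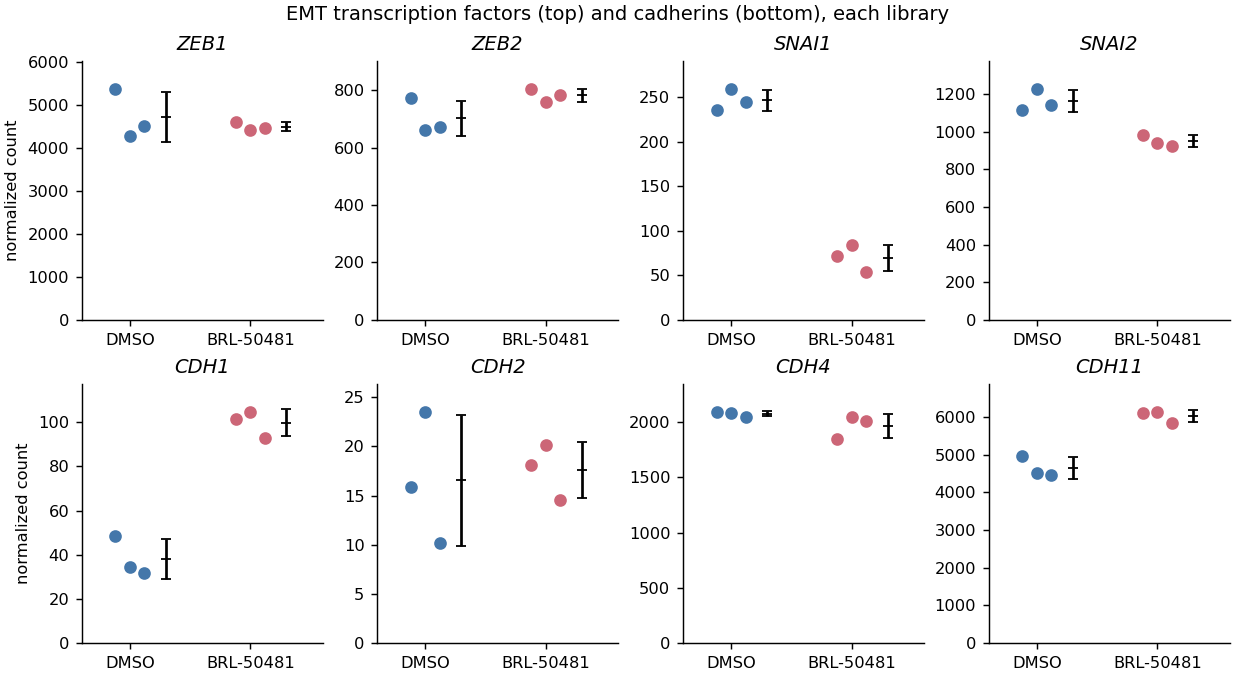
Normalized count (y axis, linear from 0) of each of the 8 genes in the 3 DMSO libraries (blue) and the 3 BRL-50481 libraries (red), with the mean and SD in black. The SNAI1 points fall from between 236 and 259.6 to between 54.3 and 83.6, the CDH1 points rise from between 31.7 and 48.6 to between 93.1 and 105, and the ZEB1 points overlap.

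Promoter sequence is shown for members and for junction genes because the ZEB and Snail proteins act through the E-box letters CACCTG or, on the other strand, CAGGTG. RefSeq windows on GRCh38.p14, from 250 bases before a transcript start to 50 after it, were at hand for 5 of the 10 genes (ZEB1, ZEB2, TWIST2, CDH2 and CDH4). Of their 13 windows, 3 held the letters (23.1%), 2 of them at ZEB1 and 1 at CDH4, against 20.6% of all 35116 windows. The following lines print the 250 bases before the start, 5′ to 3′ on the strand of the gene, with the E-box letters in capitals. The first shows the most upstream ZEB1 start (chr10:31318167-31318416, plus strand) and the second a CDH4 start inside the gene (chr20:61499171-61499420, plus strand). The last 2 lines show the promoters of the junction genes CRB3 (chr19:6464021-6464270, plus strand) and AP1M2 (chr19:10587313-10587562, minus strand), which are described with their list.
ZEB1: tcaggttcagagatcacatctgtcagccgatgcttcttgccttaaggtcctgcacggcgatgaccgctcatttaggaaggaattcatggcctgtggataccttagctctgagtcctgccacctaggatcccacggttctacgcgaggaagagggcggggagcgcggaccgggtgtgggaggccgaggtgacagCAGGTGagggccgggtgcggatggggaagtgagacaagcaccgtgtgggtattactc
CDH4: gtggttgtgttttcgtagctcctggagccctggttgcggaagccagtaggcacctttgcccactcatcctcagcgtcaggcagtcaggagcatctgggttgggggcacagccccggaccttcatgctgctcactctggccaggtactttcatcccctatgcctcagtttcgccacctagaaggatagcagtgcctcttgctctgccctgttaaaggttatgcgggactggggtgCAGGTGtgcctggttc
CRB3: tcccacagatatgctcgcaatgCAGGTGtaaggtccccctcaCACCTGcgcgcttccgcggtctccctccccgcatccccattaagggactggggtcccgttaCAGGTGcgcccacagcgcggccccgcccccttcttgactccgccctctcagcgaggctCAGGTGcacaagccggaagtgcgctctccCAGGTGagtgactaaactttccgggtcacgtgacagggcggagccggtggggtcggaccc
AP1M2: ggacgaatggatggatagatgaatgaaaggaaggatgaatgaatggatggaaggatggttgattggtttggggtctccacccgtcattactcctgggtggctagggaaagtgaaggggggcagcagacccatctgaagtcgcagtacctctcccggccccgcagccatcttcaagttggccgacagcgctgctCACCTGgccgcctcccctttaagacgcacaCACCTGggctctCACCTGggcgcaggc
In ZEB1 the letters began 57 bases before the start, and in CDH4 16 bases before it. CRB3 held them at 228, 208, 147, 89 and 60 bases, and AP1M2 at 57, 27 and 15 bases. A match of letters is a description of the sequence and no evidence of binding.

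SNAI1 encodes Snail, a zinc finger repressor that is made and degraded quickly. Its gene lies on chromosome 20 of hg38 (49982980 to 49988886, plus strand). SNAI1 had 236, 259.6 and 245 normalized counts in DMSO and 71.5, 83.6 and 54.3 in BRL-50481. Every treated library lay below every DMSO library by a gap far larger than the spread within either group. In bulk RNA, fewer cells with a transcript and less of it per cell cannot be told apart. The means were 247 ± 11.8 and 69.8 ± 14.7 (SD, n = 3 each), and the log2 fold change between them was −1.83 (standard error 0.156, adjusted p = 5.89e-07). When single libraries were left out, its log2 fold change lay between −1.97 and −1.66. An exact permutation test gave p = 0.1 (two-sided), the smallest that 3 libraries against 3 allow, and it gave the same p for SNAI2, CDH1, CDH4 and CDH11.

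SNAI2 encodes Slug, the closest relative of Snail, on chromosome 8 (48917598 to 48921740, minus strand). SNAI2 had 1113, 1227 and 1143 normalized counts in DMSO and 985, 939.8 and 926 in BRL-50481. The groups did not overlap, but the gap was small. Treated SNAI2 was 1.22-fold lower (log2 −0.29, standard error 0.0649, adjusted p = 0.00188, limma). Its 95% interval, −0.43 to −0.15, did not reach that of SNAI1, −2.17 to −1.49.

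ZEB1 and ZEB2 are zinc finger and homeodomain proteins that repress epithelial genes. ZEB1 (chromosome 10, 31318495 to 31529814, plus strand) had 5373, 4273 and 4498 normalized counts in DMSO and 4609.7, 4419.9 and 4458 in BRL-50481. The highest and the lowest value were both DMSO libraries, and the log2 fold change was −0.06 (95% interval −0.22 to 0.094, adjusted p = 0.482, limma). DMSO replicate 1 set the upper end of the ZEB1 values, and without it the log2 fold change was 0.036 (adjusted p = 0.465). ZEB2 (chromosome 2, 144364364 to 144521057, minus strand) had 772, 660.2 and 672 normalized counts in DMSO and 804, 759 and 784 in BRL-50481. DMSO replicate 1 alone overlapped the treated libraries for ZEB2. The log2 fold change of ZEB2 was 0.16 (95% interval −0.0050 to 0.33, adjusted p = 0.0884, limma), and it was called higher without DMSO replicate 1 (0.23, adjusted p = 0.00404) and with the libraries centred on their medians (0.19, adjusted p = 0.0482).

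The antisense gene ZEB1-AS1, chosen after its values were seen, starts beside ZEB1 on the other strand and shares 396 exon bases with it. Reads were counted by strand. ZEB1-AS1 had 253, 274 and 256 normalized counts in DMSO and 361, 366 and 402 in BRL-50481, so that all treated libraries were higher. Its level differed by a log2 value of 0.52 (standard error 0.0914, adjusted p = 0.000275, limma).

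CDH1 encodes E-cadherin, which holds epithelial cells together (chromosome 16, 68737292 to 68835537, plus strand). CDH1 had 48.6, 34.3 and 31.7 normalized counts in DMSO and 102, 105 and 93.1 in BRL-50481. All 3 treated libraries lay above all 3 DMSO libraries. The means were 38.2 ± 9.13 and 99.8 ± 6.07 (SD, n = 3 each), 2.61-fold apart on the log2 scale with 1 added (log2 fold change 1.39, standard error 0.193, adjusted p = 4.28e-05, limma). When single libraries were left out, the log2 fold change of CDH1 ran from 1.27, without DMSO replicate 3, to 1.57, without DMSO replicate 1.

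CDH11 encodes a type II cadherin of mesenchymal and bone-forming cells, and lies on the same chromosome as CDH1 (64943753 to 65126112, minus strand). CDH11 had 4976, 4502 and 4454 normalized counts in DMSO and 6093, 6134 and 5832 in BRL-50481. The groups were well apart. Treated CDH11 was 1.30-fold higher (log2 0.38, standard error 0.0538, adjusted p = 5.35e-05, limma). It shares 254 exon bases on its strand with another annotated transcript.

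CDH4 encodes R-cadherin, known from retina and brain (chromosome 20, 61252261 to 61940617, plus strand). CDH4 had 2094, 2087 and 2049 normalized counts in DMSO and 1845, 2047 and 2010.3 in BRL-50481. The treated libraries were lower without overlap, yet the highest of them nearly met the lowest DMSO library, and the log2 fold change was −0.079 (95% interval −0.20 to 0.044, adjusted p = 0.250, limma). CDH2, which encodes N-cadherin (chromosome 18, 27932879 to 28177946, minus strand), had 15.9, 23.5 and 10.2 normalized counts in DMSO and 18.1, 20.1 and 14.5 in BRL-50481. The groups overlapped fully. The 95% interval of its log2 fold change ran from −0.61 to 0.897 (adjusted p = 0.739, limma).

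**Figure D2:**
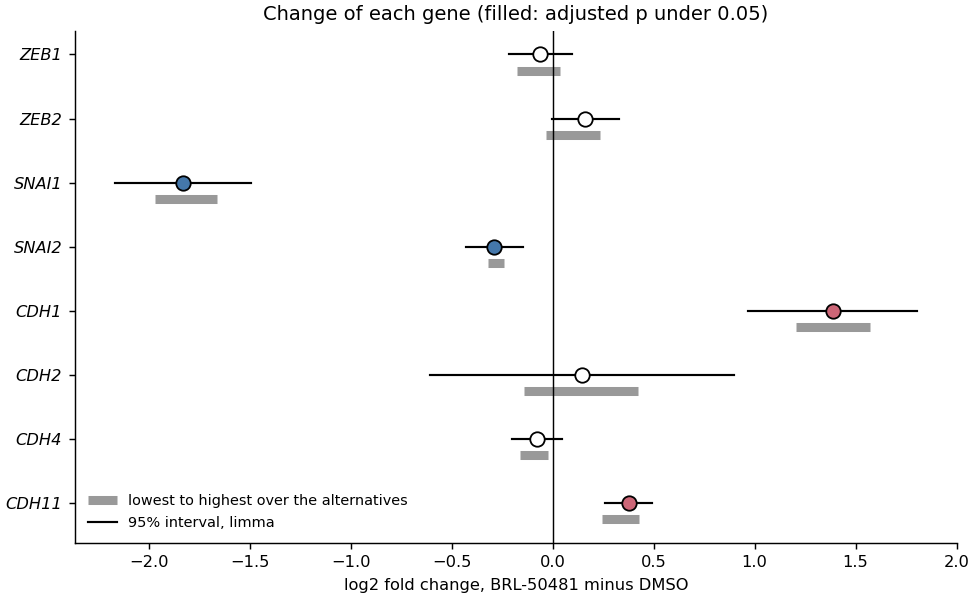
Log2 fold change of BRL-50481 over DMSO (x axis) for each of the 8 genes (rows), with the 95% interval of limma as a black line and the lowest to highest value over the processing alternatives as a grey bar. Blue (lower) and red (higher) points passed the threshold. The bars of SNAI1, SNAI2, CDH1 and CDH11 stay on their own side of 0, while those of ZEB1, ZEB2 and CDH2 cross it.

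Fold changes rose with transcript length across genes with a known length and a mean of at least 20 normalized counts. With these genes split into 3 classes by length, the median log2 fold change was −0.12 in the shortest class (median length 1610.5 bases) and 0.11 in the longest (6244 bases). The canonical transcripts of the members ran from 1705 bases (SNAI1) to 9265 bases (ZEB2). After a loess correction of every library for length and GC content, ZEB1 (−0.18, adjusted p = 0.000606) and CDH4 (−0.16, adjusted p = 0.00217) were called lower, so that 4 members were lower and 2 higher, and ZEB2 was at −0.033 (adjusted p = 0.618). Under the same correction SNAI1 (−1.76), SNAI2 (−0.24), CDH1 (1.32) and CDH11 (0.24) were still called.

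Levels of different genes were compared as RPKM, in which reads are scaled to the length of the transcript and to the total of the library. In DMSO, ZEB1 stood at 24.3 ± 3.08 and CDH11 at 21.2 ± 1.37, and their libraries overlapped. They were followed by SNAI2 (16.3 ± 0.779), CDH4 (9.52 ± 0.119), SNAI1 (4.44 ± 0.198), ZEB2 (2.32 ± 0.210), CDH1 (0.243 ± 0.0588) and CDH2 (0.126 ± 0.0505), with no overlap between neighbours in this order (SD, n = 3 each). In BRL-50481, CDH11 (28.9 ± 0.833) stood above ZEB1 (24.4 ± 0.578), and ZEB2 (2.72 ± 0.0801) above SNAI1 (1.32 ± 0.280), again without overlap. CDH1 (0.669 ± 0.0417) still lay below all members but CDH2 (0.141 ± 0.0230).

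**Figure D3:**
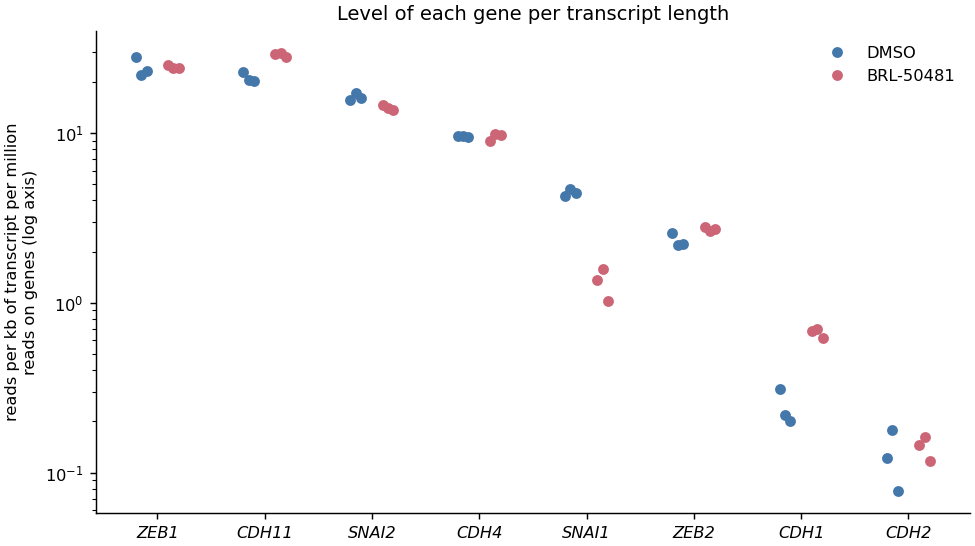
RPKM on the canonical transcript (y axis, log scale) of the 8 genes, ordered by their DMSO mean, with 1 point for each DMSO (blue) and BRL-50481 (red) library. SNAI1 drops below ZEB2 in the treated libraries, and CDH1 rises from 0.243 to 0.669 but remains under SNAI1.

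On the same scale, the mix of cadherin mRNA was dominated by CDH11 and CDH4 in both groups. CDH11 made up 69.3%, 67.3% and 67.7% of the summed level of the 4 cadherins in DMSO and 75.0%, 73.2% and 72.8% in BRL-50481. CDH4 made up 29.4%, 31.4% and 31.4% in DMSO and 22.9%, 24.6% and 25.3% in BRL-50481. The share of CDH1 was 0.778% ± 0.147 and 1.71% ± 0.0723, and that of CDH2 was 0.406% ± 0.167 and 0.360% ± 0.0508 (SD, n = 3 each). Treated and DMSO libraries did not overlap in the shares of CDH11, CDH4 and CDH1. Among the 4 listed transcription factors, SNAI1 made up 9.39% ± 0.844 of the summed level in DMSO and 3.10% ± 0.644 in BRL-50481, ZEB1 51.2% ± 3.78 and 57.4% ± 0.599, SNAI2 34.5% ± 3.12 and 33.0% ± 0.215, and ZEB2 4.89% ± 0.183 and 6.41% ± 0.139 (SD, n = 3 each). Their sum was 47.4 ± 2.53 RPKM in DMSO and 42.5 ± 1.17 in BRL-50481, while ZEB1 itself stood at 24.3 ± 3.08 and 24.4 ± 0.578.

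Genes that work with these factors and cadherins were taken from 9 lists, whose counts are read against the same background and against a median log2 fold change of 0.015 over all genes tested. Of 16 dimer partners and corepressors, 4 were higher and 8 lower, with a median of −0.16. HDAC2, a histone deacetylase recruited by Snail, was the most abundant (log2 fold change −0.39, standard error 0.0465, adjusted p = 9.99e-06, limma), and KDM1A, the histone demethylase that binds the Snail repressor domain, fell most, by 0.49 on the log2 scale. TCF4, an E protein that pairs with Twist, had 19.2 ± 4.56 and 31.1 ± 3.85 normalized counts (SD, n = 3 each). Its rise (0.68, adjusted p = 0.0427) was lost in 10 of 17 alternatives.

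Of 21 tested genes for the stability and turnover of the factors, 7 were higher and 6 lower, with a median of −0.045. LOXL2, a lysyl oxidase that binds Snail, was the most abundant and rose by 0.39, and it shares 120 exon bases with ENTPD4 on the same strand. FBXL5 rose most (0.63) and FBXO45 fell most (−0.55), and both encode F-box proteins that direct Snail or its relatives to the proteasome.

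Of 15 genes of the TGF-beta and Notch pathways, 6 were higher and 4 lower (SKI, SKIL, INHBA and NOTCH1), with a median of 0.043. With the correction for length and GC content, 7 were lower. TGFBR2, the type II TGF-beta receptor, was both the most abundant and the one that rose most (0.69). It had 10315, 9564 and 9421 normalized counts in DMSO and 16100.3, 15835 and 15344 in BRL-50481, with no overlap. NOTCH1 fell most (−0.51).

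Of 13 tested other EMT transcription factors, 4 were higher and 5 lower, with a median of 0.013. The number higher was 1 without BRL-50481 replicate 2 or with limma without trend, and 2 without DMSO replicate 2 or BRL-50481 replicate 1. YBX1 was the most abundant, at a log2 fold change of 0.013 (adjusted p = 0.835, limma). FOXC1, a forkhead factor, fell most (−0.74), with 1092 to 1169 normalized counts in the DMSO libraries and 654 to 699.8 in the treated ones. KLF8 rose most among genes with a mean of at least 20 normalized counts (0.95, standard error 0.301, adjusted p = 0.0153), but did not pass in 3 alternatives, one of them without BRL-50481 replicate 2 (adjusted p = 0.0668), and its value was 0.556 without DMSO replicate 1.

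Epithelial genes moved in both directions. Of 12 tested epithelial regulators, 4 were higher and 4 lower, with a median of 0.065. EHF, an epithelial ETS factor, was the most abundant and rose by 0.81. ESRP1, a splicing factor of epithelial isoforms, rose most (1.25, means 58.5 ± 3.43 and 142 ± 29.2 normalized counts, SD, n = 3 each). ESRP2, its more abundant relative in the list, was lower (−0.30, adjusted p = 0.0106, limma), with means of 413 ± 26.9 and 334 ± 19.4. FOXA1, a luminal factor, fell most (−1.02), with 58.5, 33.3 and 38.8 normalized counts in DMSO and 22.1, 26.2 and 14.5 in BRL-50481. Of 30 epithelial junction genes, 13 were higher and 7 lower, with a median of 0.093. DSP, which encodes desmoplakin, was the most abundant and did not pass (−0.15, adjusted p = 0.136, limma), the adhesion gene MPZL2 rose most (1.75, means 12.6 ± 6.96 and 41.7 ± 8.44 normalized counts, SD, n = 3 each), and CGN, which encodes cingulin of the tight junction, fell most (−0.83).

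E-box letters were in 13 of 26 promoter windows of the junction genes (50%), against 20.6% of all windows, and windows of a gene can overlap. CRB3 and AP1M2 from the sequences printed above, chosen for their letters after the values were seen, both rose. PATJ (older symbol INADL, 0.68, adjusted p = 3.50e-06, limma) and TJP1 (0.27, adjusted p = 0.00593) also held the letters and rose. The rest of the junction genes with the letters were not called higher. CLDN7, which held them at several places, did not pass (0.11, adjusted p = 0.172, limma), and OCLN fell (−0.58, adjusted p = 0.000127). CRB3 had a mean of 14.5 normalized counts, under the 20 set for named genes. CRB3 and AP1M2 were not followed singly through the alternatives. CRB3, a polarity protein of the apical membrane, had 4.96, 9.80 and 12.3 normalized counts in DMSO and 23.2, 18.1 and 18.4 in BRL-50481 (log2 fold change 1.13, standard error 0.378, adjusted p = 0.0201, limma). AP1M2, an epithelial subunit of the AP-1 sorting adaptor, rose by 0.44 (standard error 0.107, adjusted p = 0.00340). Of the 11 listed junction genes with the letters in a window, 4 were higher, 1 lower and 6 not called, and of the 6 without them 3 were higher, 2 lower and 1 not called.

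Of 15 tested catenins and other cadherin-bound proteins, 7 were higher and 1 lower, or 2 lower with the correction for length and GC content, with a median of 0.16. CTNNA1, which encodes alpha-catenin, the link from cadherins to actin, was the most abundant and rose by 0.33 (standard error 0.0448, adjusted p = 3.48e-05, limma). CTNND1, which encodes p120-catenin, had the largest rise (0.96), but its counts are uncertain because it shares 5952 exon bases with another annotated gene on the same strand. PVRL1 (now NECTIN1), a nectin, fell most (−0.58).

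Of 19 tested other cadherin superfamily genes, 8 were higher and 1 lower, with a median of 0.13. The desmosomal cadherin DSG2 was the most abundant (0.12, adjusted p = 0.118, limma). DSG2 was called higher in 1 of 17 alternatives, without DMSO replicate 1 (0.205, adjusted p = 7.63e-06). With the correction for length and GC content it was at 0.017 (adjusted p = 0.657). Among those with a mean of at least 20, the giant cadherin FAT3 rose most (1.43, with means of 47.2 ± 5.83 and 128 ± 10.5 normalized counts, SD, n = 3 each), and the protocadherin PCDH1 fell (−0.44). With genes under a mean of 20 left out, 5 were higher, and 2 were lower without DMSO replicate 2 or with the correction for length and GC content. CDH3, which encodes P-cadherin and lies beside CDH1, had 31.7, 51.9 and 41.9 normalized counts in DMSO and 53.4, 41.3 and 56.2 in BRL-50481, so that the groups overlapped (log2 fold change 0.27, adjusted p = 0.319, limma), and it was chosen for its place.

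Of 18 tested mesenchymal markers, 11 were higher and 2 lower, or 1 lower with genes under a mean of 20 left out, with a median of 0.22. VIM, which encodes vimentin, was the most abundant and reached 87654 ± 956 normalized counts (SD, n = 3) in BRL-50481 (log2 fold change 0.58, standard error 0.0453, adjusted p = 2.91e-07, limma). SPARC, a matrix glycoprotein, rose most (1.22) from a low level of 14.0 ± 0.830, and TAGLN, a smooth muscle actin-binding protein, fell most among genes with a mean of at least 20 (−0.63, from 148 ± 22.2 to 94.5 ± 1.96), but its counts are uncertain because it shares 2498 exon bases with another annotated gene on the same strand. The higher level of CDH1 stood beside higher levels of VIM and CDH11 in the same libraries.

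**Figure D4:**
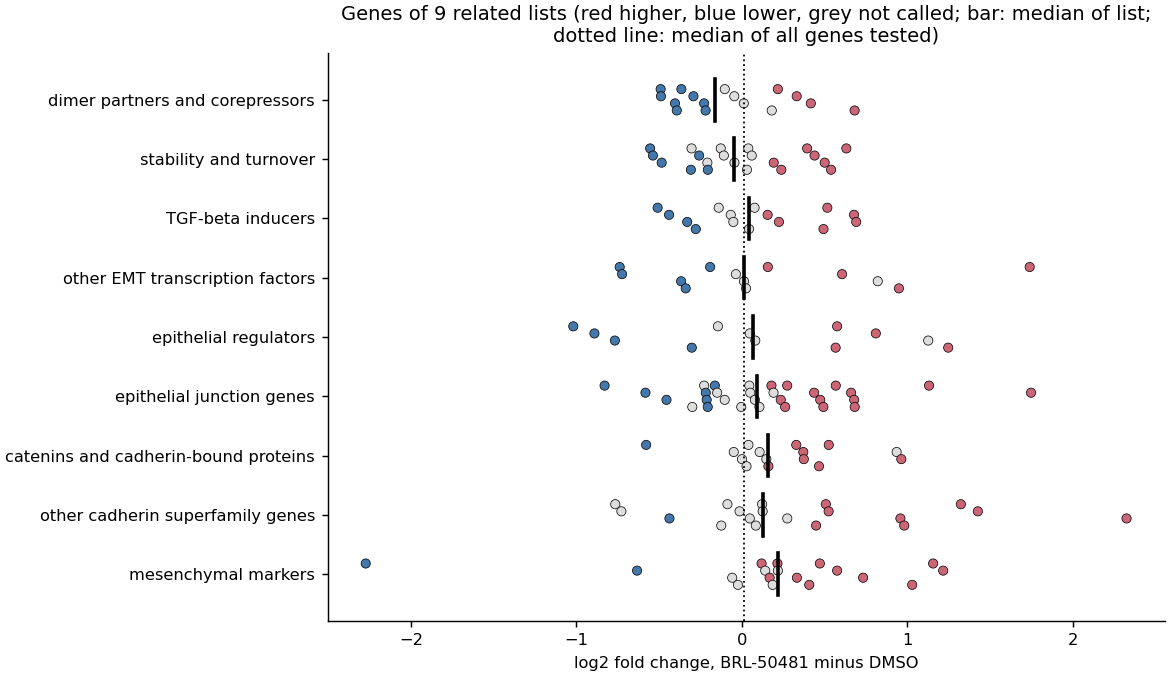
Log2 fold change (x axis) of each tested gene of the 9 lists (rows), with called genes in red (higher) or blue (lower), the median of each list as a black bar and the median of all genes as a dotted line. The medians run from −0.16 in the dimer partners and corepressors to 0.22 in the mesenchymal markers.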

How the data were processed

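RNA-seq of 3 DMSO and 3 BRL-50481 libraries of MDA-MB-231 cells was used from 1 table. Per the Methods and the submitters' processing notes, the authors mapped 76-base single-end reads with STAR 2.7.1a (hg38), counted them on UCSC genes with htseq-count, reading the reverse strand, and normalized the counts with DESeq2 1.28. The deposited signal of a gene is its count divided by the size factor of the library, here called a normalized count. The deposited mean signal, log2 fold changes, scores (Wald statistics) and p-values are the authors' own comparison and were not used. The labels describe oligo-dT selection, the series record ribosomal RNA depletion. All values (100%, within 0.001 of a read) were whole reads times 1 step per library, so reads were recovered for the count tests.

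The 15246 genes with at least 4 normalized counts in at least 3 libraries were tested with limma 3.58.1 in R 4.3.3 (trend) on log2(normalized count + 1) with group as the only term, adjusted by Benjamini-Hochberg. Replicates are called biological in the series record. The alternatives tried were no filter, a mean of at least 20, pseudocounts of 0.5 or 4, quantile normalization, median centring, no trend, edgeR 4.0.16, DESeq2 1.42.0, the replicate number as a block, a correction for length and GC content (loess, span 0.5; GENCODE 44 canonical transcripts, matched for 96.5% of genes), and leaving out each library. The procedures were tested on simulated counts. Deviations of same-numbered DMSO and BRL-50481 libraries correlated weakly (0.121, 0.104 and 0.0514), against −0.159 to 0.0607 for differently numbered ones. For each DMSO library the same number gave the highest correlation. The main test did not treat the numbers as pairs, and the replicate block carried them as an alternative.

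Members and lists were chosen with earlier results of these data known. Named genes are all members and, per list, the most abundant gene and the largest rise and fall among called genes with a mean of at least 20, others being marked as chosen afterwards. Older symbols were matched through RefSeq. Intervals are limma's, at 95%.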

Additional observations from a re-analysis of the deposited data

How the results depend on the processing

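Calls of SNAI1, SNAI2, CDH1 and CDH11 held under all 17 alternatives, with log2 fold changes of −1.97 to −1.66, −0.32 to −0.24, 1.21 to 1.57 and 0.24 to 0.43. The replicate block changed no call of a member (SNAI1 −1.83, adjusted p = 1.94e-06) and, among the named genes, ended only that of TCF4 (adjusted p = 0.0632). With the correction for transcript length and GC content, 4 members, 7 TGF-beta and Notch pathway genes, 2 catenin-group genes and 2 other cadherins were lower. Under it DSP was called lower (−0.34), and ZEB2 changed sign to −0.033. Without trend, 1 other EMT transcription factor was higher. With a mean of at least 20, where fewer genes are tested, 5 other cadherins were higher and 1 mesenchymal marker lower. CDH2 changed sign to −0.096 with quantile normalization and to −0.14 without DMSO replicate 3. Over single libraries left out, ZEB1 ran from −0.129 to 0.036, CDH2 from −0.140 to 0.424 and YBX1 from −0.024 to 0.035, ZEB1 and YBX1 changing sign without DMSO replicate 1. With each library left out in turn, 1 to 4 other EMT transcription factors were higher (1 without BRL-50481 replicate 2, and 2 without DMSO replicate 2 or BRL-50481 replicate 1) and 1 to 2 other cadherins lower (2 without DMSO replicate 2), and DSP was called lower without DMSO replicate 2 (−0.24). The cause of these changes was not tested. CDH2 had 10.2 to 23.5 normalized counts per library, the lowest of the members.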
